A study of Bos taurus with 10 samples.

Results

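The 10 genes described here encode matricellular proteins, which sit in the extracellular matrix and signal to cells more than they bear load, together with fibronectin and 2 proteins of the microfibrils around elastic fibres. They are SPARC, FN1, POSTN, TGFBI, MGP, THBS4, FBN1, MFAP5, CCN1 and CCN2. Each was measured in skeletal muscle of 10 cattle on a short-oligonucleotide array that reads a transcript with a group of probes, called a probe set. A member was measured if at least 1 probe set carried its symbol and no other, and all 10 were, by 14 probe sets among 24016 outside the controls and as 10 of 9155 named genes. The probe set that stands for a gene was chosen by its mean signal, the brightest being used. The genes were proposed with earlier results of these arrays in view, so their levels, spread and agreement are given as a description with no test.

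Matricellular proteins are secreted mainly by fibroblasts and other stromal cells, bind collagens, integrins and growth factors, and tend to be made more during growth, repair and fibrosis. Microfibrils built from fibrillin carry elastin and hold latent TGF-beta, and several of the genes are known targets of TGF-beta or of mechanical signalling. In skeletal muscle such proteins lie in the connective tissue sheaths around fibres and bundles, where they take part in force transmission and in the setting for fat and satellite cells.

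The samples are skeletal muscle and form 1 group of 10 with no treatment, numbered here as animals 1 to 10. The label of animal 1 gives longissimus dorsi, the breed Hanwoo, a native beef breed of Korea, and an age of about 2 years; the other labels carry the same title prefix and no such detail. Poly(A) RNA was measured, 1 array per animal, and no trait value was used here, so the genes can only be set against other measures of the same arrays. Nothing but the numbering marks the samples as separate cattle, and every p-value takes them as independent.

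The tissue label was checked first. All 7 skeletal muscle fibre markers (ACTA1, CKM, MYH7, TNNC1, TNNT3, MYL1 and MB) had mean levels between 15.60 and 16.05 on the log2 scale used throughout, log2(signal + 16) after quantile normalization. Median intensity per array ran from 111 to 134, and r between 2 arrays from 0.901 to 0.959. Animal 5 stood apart: the 3' minus 5' difference of 4 added poly(A) control RNAs was 2.93 there and 1.40 to 1.70 in the other 9. This difference is a measure of the array and its labelling that uses no bovine gene. Results that rest on animal 5 are therefore given with and without it.

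The glycoprotein genes SPARC and FN1 differed several-fold between animals. SPARC, which encodes osteonectin, a collagen-binding protein of bone and stroma, ran from 9.89 in animal 5 through a median of 11.16 to 12.29 in animal 9. Animals 6 and 9 were the only ones above 12, and animal 5 the only one below 10. The range was 5.28-fold on this scale, and the mean was 11.25 ± 0.78 (SD, n = 10). FN1, which encodes fibronectin, the adhesive protein through which many cells hold the matrix, ran from 9.15 in animal 1 through a median of 10.52 to 11.59 in animal 6. Its highest values were again in animals 6 and 9 (11.30), and its lowest in animals 1, 5 (9.47) and 2 (9.99). Its mean was 10.47 ± 0.77.

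**Figure D1:**
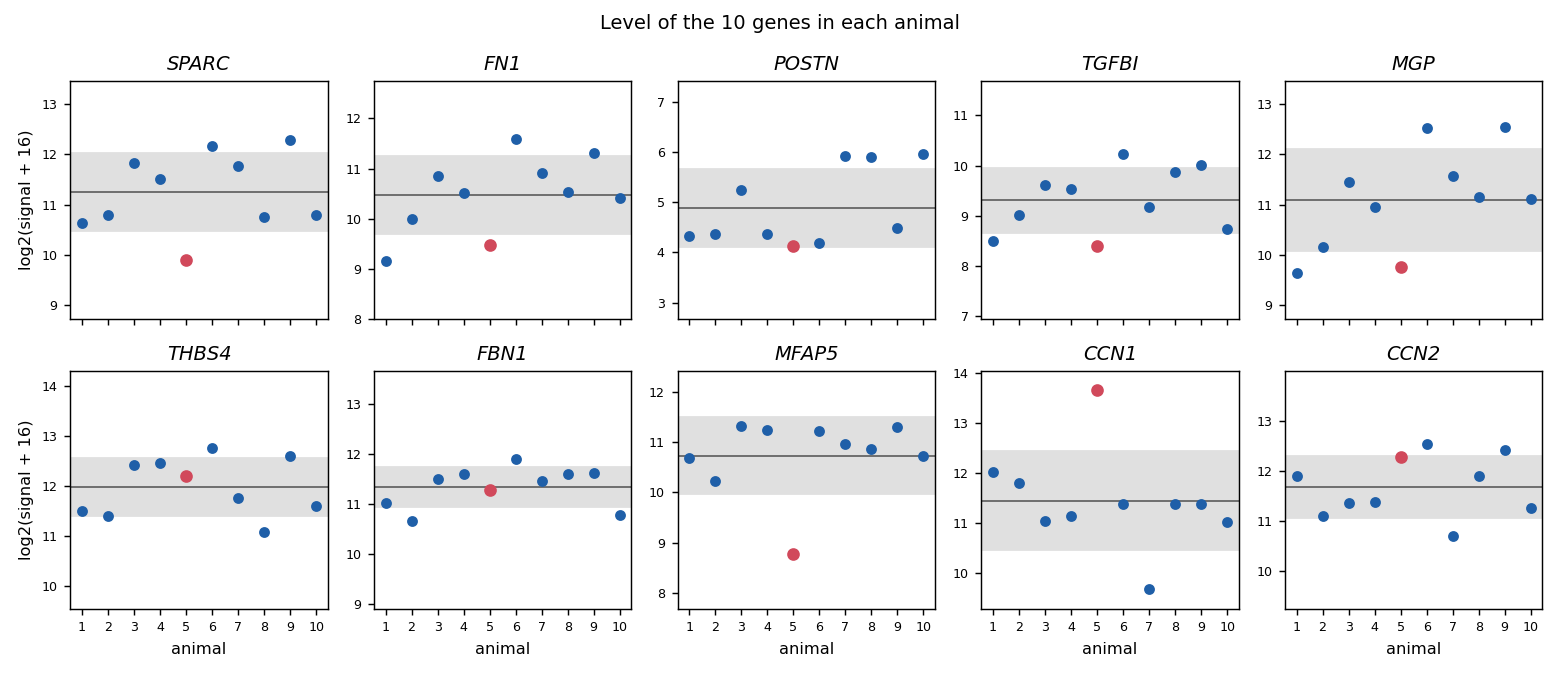
Level of the 10 genes in each animal, as log2(signal + 16) after quantile normalization (y axis, the same span in every panel) against animal number (x axis). Points are single animals with animal 5 in red, the line is the mean and the grey band is the mean ± SD. MFAP5 is lowest and CCN1 highest in animal 5, and the POSTN values lie near the floor of 4.

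MGP varied more than SPARC and FN1. It encodes matrix Gla protein, a small secreted inhibitor of calcification in cartilage and vessel walls. Levels ran from 9.63 in animal 1 through a median of 11.14 to 12.55 in animal 9, with 12.53 in animal 6. Animals 1, 5 (9.75) and 2 (10.15) were low and the other 5 lay between 10.96 and 11.58. The range was 7.58-fold and the mean 11.09 ± 1.02 (SD, n = 10).

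TGFBI and POSTN encode related adhesion proteins built from fasciclin domains, both known to be induced by TGF-beta, but only the first was read clearly. TGFBI ran from 8.39 in animal 5 through a median of 9.35 to 10.23 in animal 6, with a mean of 9.31 ± 0.65 (SD, n = 10). Animals 6 and 9 (10.01) were the only ones above 10, and animals 1, 5 and 10 were below 9. POSTN, which encodes periostin, had a mean of 4.89 ± 0.78, close to the floor of 4 that the added 16 sets. Its deposited intensities lay between 1.05 and 55.4 (median 5.41), and only 7.8% of probe sets were dimmer on average. It lay below the filter used for testing, a mean level of 6.98, so it entered no test, and 9 of the 10 members did. The higher POSTN values, 5.91 to 5.97 in animals 7, 8 and 10, depend on the added constant: with 64 in place of 16 its SD was 0.33.

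THBS4 encodes thrombospondin 4, a matricellular protein of tendon and muscle attachment. It ran from 11.09 in animal 8 through a median of 11.99 to 12.77 in animal 6, with a mean of 11.98 ± 0.58 (SD, n = 10). The animals fell on both sides of a gap between 11.76 and 12.21: animals 3, 4, 5, 6 and 9 above it and animals 1, 2, 7, 8 and 10 below it. Unlike SPARC, FN1, TGFBI and MGP, THBS4 was not among the 3 lowest values in animal 5, at 12.21.

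The microfibril genes FBN1 and MFAP5 had unlike spreads. FBN1 encodes fibrillin 1, the main building block of microfibrils. It varied least of the 10 genes, from 10.67 in animal 2 through a median of 11.48 to 11.91 in animal 6, with a mean of 11.35 ± 0.40 (SD, n = 10). MFAP5 encodes a glycoprotein that associates with fibrillin. It ran from 8.78 in animal 5 through a median of 10.92 to 11.33 in animal 3. Animal 5 lay far below the next animal (10.23 in animal 2), and the other 9 lay between 10.23 and 11.33. The mean was 10.73 ± 0.77, and the SD without animal 5 was 0.37.

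The CCN genes encode secreted regulators of adhesion, CCN1 (CYR61) and CCN2 (connective tissue growth factor), both known as rapid targets of serum, TGF-beta and stretch. CCN1 had the widest range of the 10, from 9.69 in animal 7 through a median of 11.38 to 13.65 in animal 5, a 15.6-fold range. Animals 5 and 7 stood at its ends and the other 8 lay between 11.02 and 12.02. Its mean was 11.45 ± 0.99 (SD, n = 10), and its SD without animal 5 was 0.66. CCN2 ran from 10.70, also in animal 7, through a median of 11.63 to 12.54 in animal 6. Animals 5 (12.27), 6 and 9 (12.41) were above 12. Its mean was 11.68 ± 0.62.

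Most of these genes varied more between animals than a typical gene. Of the 9 tested members, 8 had an SD above 0.5, against 1384 (22.1%) of 6271 tested genes. The median SD was 0.77 over the members and 0.36 over all tested genes. MGP had a larger SD than 98.7% of tested genes, CCN1 than 98.5%, SPARC than 95.8% and FBN1 than 59.9%. For MFAP5 this share was 95.5%, with the large deviation of animal 5 included. Without that animal the SD of MFAP5 was 0.37, below the cut of 0.5, and that of CCN1 fell from 0.99 to 0.66. Shares of all tested genes without animal 5 are not given here.

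**Figure D2:**
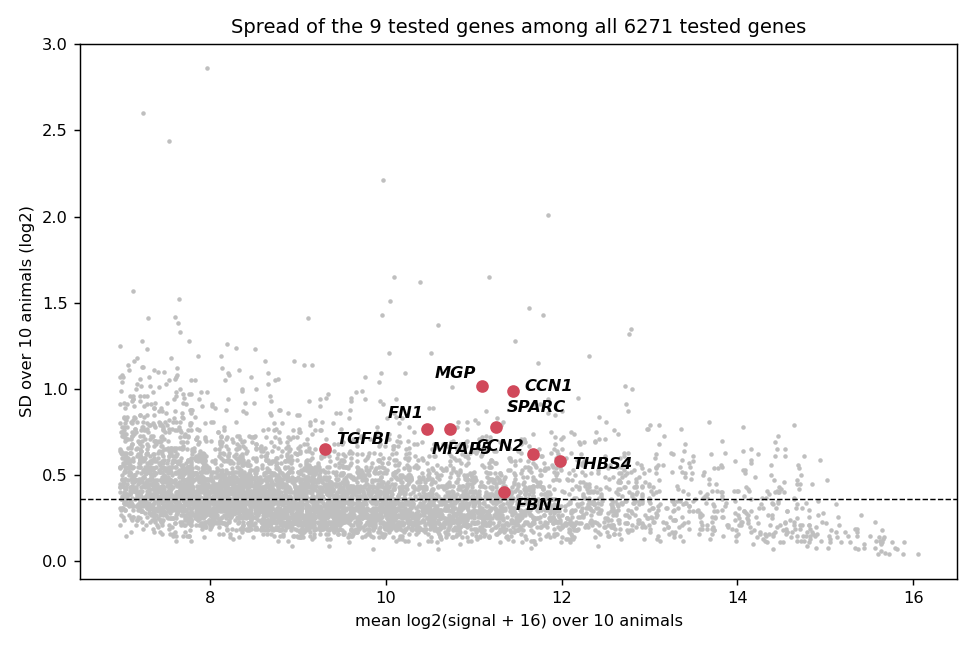
SD over the 10 animals (y axis, log2) against mean log2(signal + 16) (x axis) for all 6271 tested genes in grey, with the 9 tested members in red and the median SD of 0.36 as a dashed line. All 9 lie above that median, MGP and CCN1 highest and FBN1 at 0.40 nearest to it.

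Of the members, 2 had more than 1 probe set, and the others did not follow the brightest. The second FN1 probe set had a mean of 5.68 and r = -0.02 with the brightest. The other 3 MGP probe sets had means of 5.37, 4.91 and 4.58 and r = -0.28, -0.10 and 0.07. All 4 of these dim probe sets lay below the test filter. The spread of FN1 and MGP therefore rests on 1 probe set each, as does that of the 8 members with 1 probe set. When the probe sets of a gene were averaged instead, the SD of FN1 was 0.44 and that of MGP 0.38. The mean level of MGP was then 6.49, below the test filter of 6.98, so it entered no fit under that alternative.

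The tested members outside the CCN family rose and fell in much the same animals. Over these 7 genes, the 21 pairs had r between 0.24 and 0.98 with a median of 0.69 across the 10 animals. Animal 9 was among the 3 highest for 7 of the 7 genes and animal 6 for 6 of them, while animal 1 was among the 3 lowest for 7 of 7. For FN1 and MGP r was 0.98 (rho = 0.98) and stayed between 0.97 and 0.99 when any 1 animal was omitted. It was 0.67 when probe sets of a gene were averaged. SPARC had r = 0.89 with MGP and 0.88 with FN1, and TGFBI had 0.87 with FN1 and 0.85 with MGP. For comparison, the median r of FN1 with all other tested genes was 0.05, and with the other 8 tested members 0.68. The pairs share arrays and normalization.

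**Figure D3:**
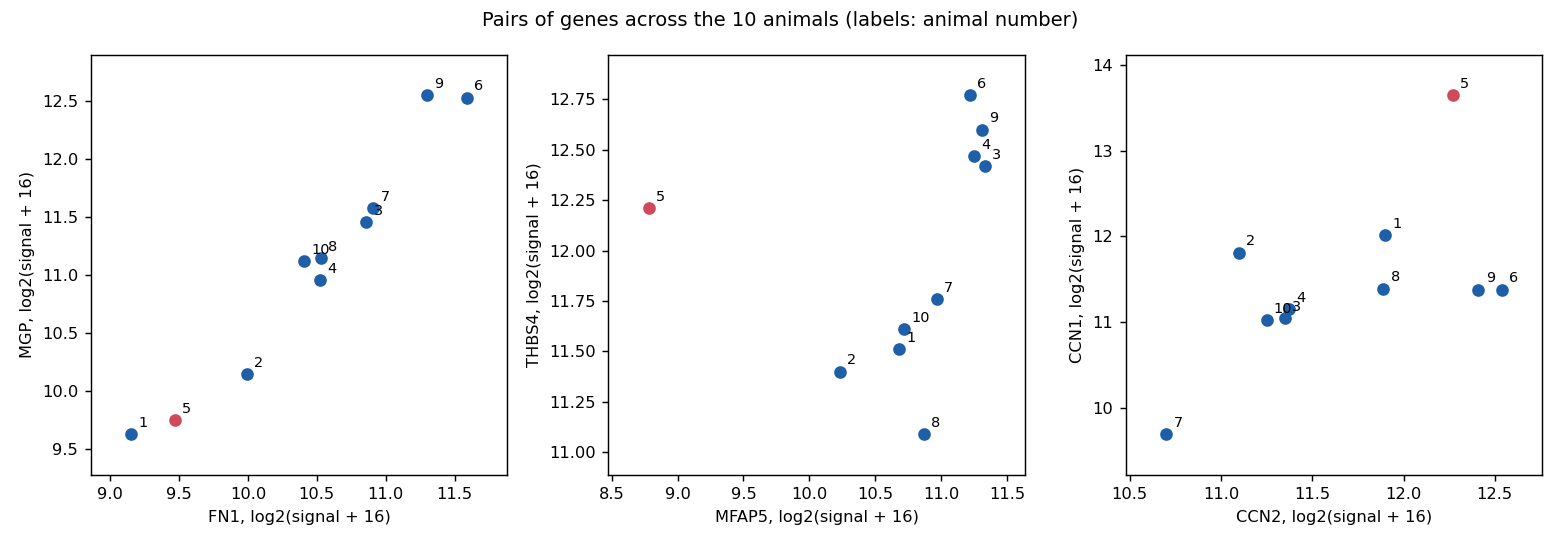
Levels of 3 pairs of genes across the 10 animals, both axes as log2(signal + 16), with animal numbers beside the points and animal 5 in red. FN1 and MGP lie along a line (r = 0.98), and animal 5 lies away from the other 9 for MFAP5 and THBS4. Animal 7 is lowest for both CCN1 and CCN2, while animal 5 is highest for CCN1 and animal 6 for CCN2.

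Animal 5 hid part of this agreement and made another part. THBS4 and MFAP5 had r = 0.24 over 10 animals and 0.81 without animal 5. FBN1 and MFAP5 had r = 0.43 and 0.85, and SPARC and THBS4 0.61 and 0.89. Without animal 5 the median over the 21 pairs was 0.74 and the lowest was 0.59. In the opposite direction, CCN1 and MFAP5 had r = -0.79 over all animals and -0.32 without animal 5, and CCN1 and SPARC -0.66 and -0.38.

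**Figure D4:**
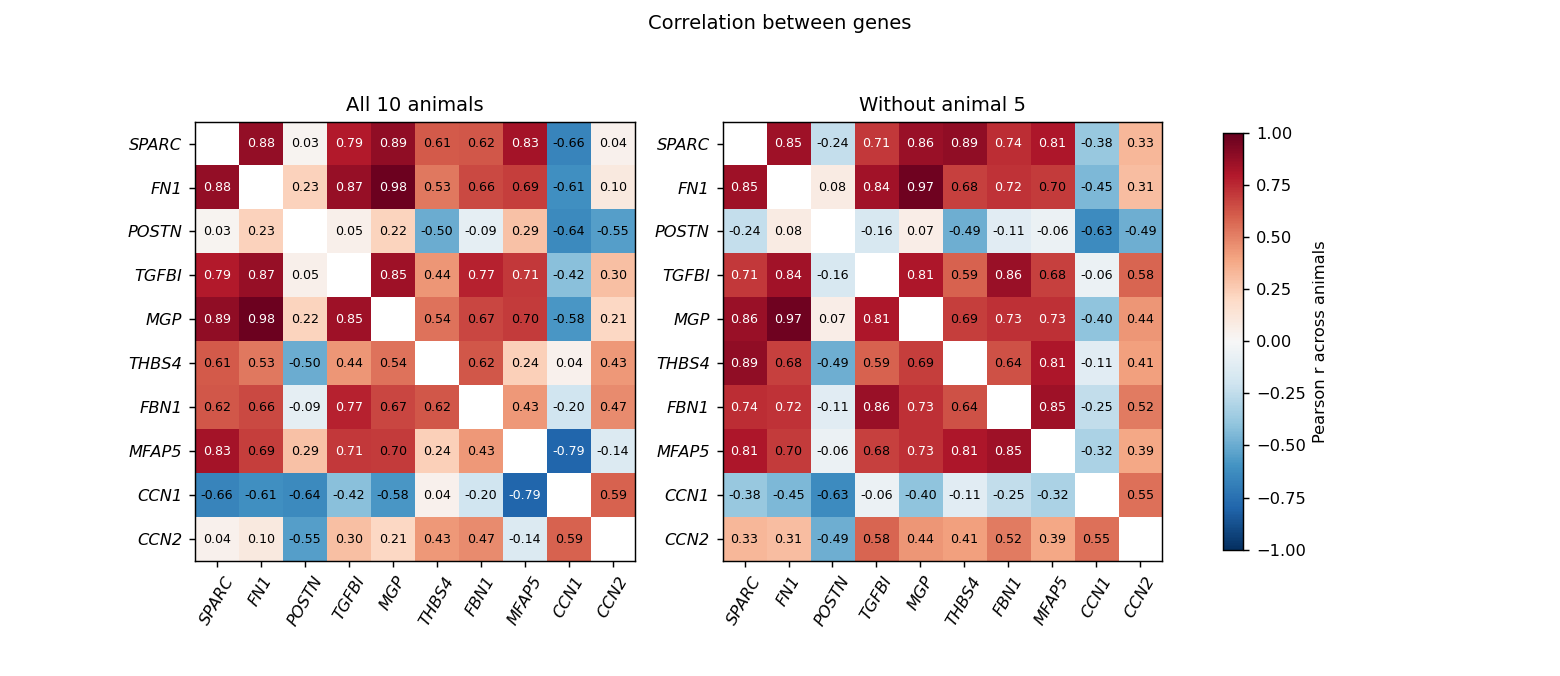
Pearson's r between each pair of the 10 genes across all 10 animals (left) and without animal 5 (right), from -1 in blue to 1 in red. SPARC, FN1, TGFBI, MGP, THBS4, FBN1 and MFAP5 are positive with each other in both panels, CCN1 is negative with most of them, and the POSTN squares come from values near the floor.

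CCN1 went partly with CCN2 and apart from the rest. CCN1 and CCN2 had r = 0.59 (rho = 0.52), 0.55 without animal 5 and 0.31 without animals 3 and 7. The median r of CCN1 with the other 8 tested members was -0.50 (-0.29 without animal 5), and that of CCN2 was 0.26 (0.43 without animal 5). Without animal 5, CCN2 had r from 0.31 (FN1) to 0.58 (TGFBI) with the 7 tested members outside the CCN family. CCN2 thus lay between CCN1 and the matrix genes in its pattern.

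The genes most like each member were the 5 with the highest r over the 10 animals among all tested genes. Picking the highest of 6270 values over 10 animals favours a high r by itself, so these genes are a description. For FN1 they were MGP, the fibrillar collagen gene COL5A3 (r = 0.96), MRPS30, IGFBP4 and MAN1A1. For MGP they were FN1, COL5A3 (r = 0.97), MRPS30, the annexin gene ANXA5 and GLIPR2. For SPARC they were LOC504773 (r = 0.97), COPZ2, ANXA5, DAB2 and RNASE6, a ribonuclease gene of immune cells. For TGFBI they were RAB34 (r = 0.96), GLT8D2, BNIP3L, the macrophage marker CD68 and RNASE6. THBS4 was closest to the myosin light chain kinase gene MYLK (r = 0.94), then ARHGEF6, ACP5, ACAD11 and CCDC3, and FBN1 to MTURN (r = 0.93), ACCS, NPC2, FKBP14 and RBM5.

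The values for MFAP5 and CCN1 fell without animal 5, and those for CCN2 moved little. MFAP5 was closest to the elongation factor gene EEF1A1 (r = 0.97, 0.90 without animal 5), then DELE1, TMSB10, S100A10 and HINT1 (0.96, 0.79 without animal 5). CCN1 was closest to SLC35B2 (r = 0.93, 0.82 without animal 5), PHC1, SEL1L3, UBXN6 and MACROD1. CCN2 was closest to XPNPEP2 (r = 0.86, 0.84 without animal 5), IARS2, SHC1, GPC3 and MVP.

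The members were next set against 6 gene scores, each the mean deviation of a fixed list of genes in an animal, to ask which other tissue components they varied with. Scores and members come from the same arrays, and in whole muscle fewer cells of a type and less RNA per cell cannot be told apart. The members were chosen with the covariation of SPARC, FN1, MGP and TGFBI with fat and connective tissue scores already known. Their slopes, and the counts of members that rose, therefore give no independent support. The genes of largest SD in the lists were COL1A2 (0.94), FABP4 (1.62), C1QA (0.88), KERA (1.28), EGR1 and ATF3 (both 1.65) and FGG (2.86). A slope is the change in log2 level per SD of the score. Slopes were tested with limma over all tested genes, at a Benjamini-Hochberg adjusted p below 0.05. Genes of the score's own list, set against the score without them, are left out of the counts. The scores overlap: animals 6 and 9 stood highest in the collagen, adipocyte, macrophage and tendon scores alike. The macrophage list gene C1QA rose with the adipocyte score (0.84, limma adjusted p = 0.00301). The collagen list gene COL1A1 rose with the macrophage score (0.74, limma adjusted p = 0.033). These fits therefore do not tell fat, macrophages and connective tissue apart.

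FN1 rose with the fibrillar collagen score, made of COL1A1, COL1A2, COL3A1 and COL5A2. Its slope was 0.69 (SE 0.11, limma adjusted p = 0.0406). It was 1 of 3 genes of 6267 that rose (0.0479%), with the fibroblast protease gene FAP and the proteoglycan gene FMOD, and 0 fell. MGP had a slope of 0.88 (limma adjusted p = 0.0716) and TGFBI 0.57 (limma adjusted p = 0.0991), neither past the test. At an unadjusted p below 0.05, 6 of 9 members rose, against 4.58% of all genes. The median slope was 0.35 over the members and 0.01 over all genes. The FN1 call held without animal 5 or animal 7 and was lost without any of animals 1, 2, 3, 4, 6, 8, 9 and 10 (adjusted p from 0.0607 to 0.443) and with no filter on low values (0.0533). Its slope stayed between 0.55 and 0.75 when any 1 animal was omitted, and was 0.33 (adjusted p = 0.42) when probe sets were averaged. MGP passed without animal 5 (0.0455), with the deposited scaling (0.0369) and with a covariate for the poly(A) controls (0.0469), and TGFBI with that covariate (0.0469).

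SPARC rose with the adipocyte score, made of FABP4, ADIPOQ, CIDEC, CIDEA, LPL, CD36 and CFD. Of these 7 genes, 4 rose with the score made without them at an unadjusted p below 0.05. LPL was highest in animal 5 (13.47), where the score was lowest at -0.88. The SPARC slope was 0.70 (SE 0.12, limma adjusted p = 0.0346), among 9 of 6264 genes that rose (0.144%). MGP had 0.81 (limma adjusted p = 0.124), MFAP5 0.58 and FN1 0.57, none past the test. At an unadjusted p below 0.05, 7 of 9 members rose, against 5.95% of all genes, and the slopes of CCN1 (-0.51) and CCN2 (0.16) did not reach it. The SPARC call was lost without any of animals 4, 5, 6, 7 and 9 (adjusted p from 0.055 to 0.187) and with a covariate for the poly(A) controls (0.105).

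SPARC and MGP rose with the macrophage score, made of C1QA, C1QB, CD68, CSF1R, CD14 and AIF1. MGP had a slope of 0.87 (SE 0.16, limma adjusted p = 0.033) and SPARC 0.66 (SE 0.13, limma adjusted p = 0.0465). They were 2 of 26 genes of 6265 that rose (0.415%), and 1 fell. MFAP5 followed at 0.63 (limma adjusted p = 0.0796), with FN1 at 0.61 and TGFBI at 0.53 (both limma adjusted p = 0.103). At an unadjusted p below 0.05, 6 of 9 members rose, against 8.73% of all genes. Without animal 5, where this score was lowest at -0.96 in log2 units, 0 genes passed and 559 had an unadjusted p below 0.05. The MGP call was also lost without any of animals 2, 4, 6, 8, 9 and 10 (adjusted p from 0.0604 to 0.181, animal 5 included), and the SPARC call without any of 1, 2, 4, 6, 8, 9 and 10 (0.0555 to 0.259, animal 5 included). FN1 passed without animal 1 (0.0273). SPARC also missed the test with the deposited scaling (0.0676). With a covariate for the poly(A) controls both calls were lost, SPARC at 0.214 and MGP at 0.0969. With probe sets averaged per gene, MGP lay below the test filter and had no slope.

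With the tendon and fascia score, made of KERA, FMOD, PRELP and ASPN, 0 of 6267 genes (0%) passed, and 403 had an unadjusted p below 0.05. Of these 4 genes, only KERA and FMOD rose with the score made without them at an unadjusted p below 0.05. MGP, TGFBI and FN1 had slopes of 0.90, 0.58 and 0.67 with adjusted p = 0.0755, 0.0755 and 0.0828 in limma. At an unadjusted p below 0.05, 6 of 9 members rose, against 4.36% of all genes. All 3 passed without animal 3 (limma adjusted p = 0.0331, 0.0435 and 0.0357), and MGP also without animal 8 (0.0298) and with the deposited scaling (0.0478). THBS4, itself known from tendon, had a slope of 0.19 (SE 0.16, limma adjusted p = 0.89).

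CCN1 had its largest slope with the immediate early score, made of 12 genes. They were FOS, FOSB, JUN, JUNB, EGR1, ATF3, IER2, IER3, DUSP1, ZFP36, MYC and NR4A1. The list was mixed: 6 of the 12 rose with the score made without them at an unadjusted p below 0.05. Their r with CCN1 ran from -0.42 for IER3 to 0.88 for FOS. Without animal 5 it ran from -0.04 for MYC to 0.76 for NR4A1, and IER3 had 0.13. The CCN1 slope was 0.80 (SE 0.17), but in limma 0 of 6259 genes (0%) passed and CCN1 had an adjusted p = 0.283. In all 606 genes had an unadjusted p below 0.05. At that threshold CCN1 and CCN2 (0.35) rose, against 3.08% of all genes, and SPARC (-0.52), FN1 (-0.45) and MFAP5 (-0.56) fell, against 6.6%. Animal 5 had the highest immediate early score, 0.90, and without it the CCN1 slope was 0.45 (limma adjusted p = 0.964).

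FN1 is also made by the liver as a plasma protein, so a liver plasma protein score was included, made of ALB, APOA1, FGG, TF, HP, AHSG and VTN. Of these 7 genes, 4 (FGG, TF, HP and VTN) rose with the score made without them. The others did not, even at an unadjusted p below 0.05, and ALB was highest in animal 1 and AHSG in animal 8. The score of all 7 was 2.31 in animal 3 and 2.21 in animal 7, against -1.59 to 0.63 in the other 8. The FN1 slope on it was 0.12 (SE 0.22, limma adjusted p = 0.944), and FN1 stood at 10.86 and 10.91 in those 2 animals, the fourth and the third highest of 10. Of 6264 genes 6 rose with the score (0.0958%) and 0 of the 9 members did. CCN1 and CCN2 had slopes of -0.69 and -0.48, with an unadjusted p below 0.05 as for 2.23% of genes that fell, and limma adjusted p = 0.894 and 0.59. Both CCN1 and CCN2 were lowest in animal 7, at 9.69 and 10.70. Without animals 3 and 7 the CCN2 slope was -0.02, and the CCN1 slope is not given here.

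**Figure D5:**
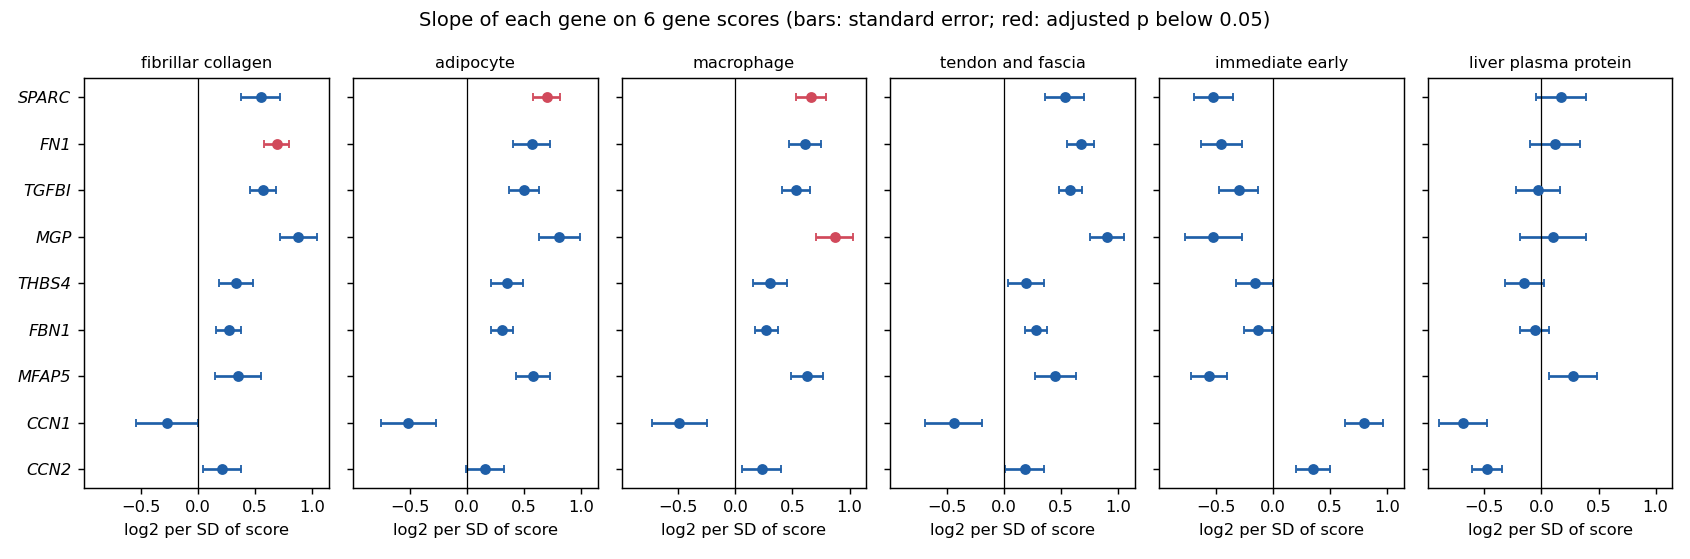
Slope of each of the 9 tested genes (x axis, log2 change per SD of the score) on 6 gene scores, with standard errors as bars and red for an adjusted p below 0.05. SPARC, FN1, TGFBI, MGP, THBS4, FBN1 and MFAP5 lie right of 0 for the first 4 scores, and CCN1 lies left of 0 there and right of 0 for the immediate early score.

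MFAP5 fell and CCN1 rose with the poly(A) control difference. MFAP5 had a slope of -0.69 per SD (SE 0.11, limma adjusted p = 0.000756) and CCN1 of 0.71 (SE 0.20, limma adjusted p = 0.0228). Of 6271 genes 296 rose (4.72%) and 745 fell (11.9%), so 1 member in each direction of 9 is near the background. Both slopes rest on animal 5: without it they were -0.12 and -0.18 (limma adjusted p = 0.962 for both), and 0 genes passed in all, with 337 at an unadjusted p below 0.05. With the weak TrpnX control added to the other 4, the MFAP5 slope was -0.48 (limma adjusted p = 0.104) and the CCN1 slope 0.72 (0.0354).

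Of 10 other tested genes of elastic fibres and microfibrils, 2 rose with the macrophage score: FBLN5, which encodes fibulin 5, needed for elastic fibre assembly (0.46, limma adjusted p = 0.033), and EFEMP1, which encodes the related fibulin 3 (0.52, limma adjusted p = 0.0479). Both calls belong to the fit in which 0 genes passed without animal 5. With the collagen, adipocyte and tendon scores 0 of 10 passed, and 4, 4 and 5 had positive slopes at an unadjusted p below 0.05. The median r with the 7 members outside the CCN family ran from -0.35 for EMILIN2 to 0.82 for FBLN5, and without animal 5 from -0.35 to 0.80 (EFEMP1). ELN, the elastin gene, had a mean of 7.54 ± 0.48 (SD, n = 10) and a median r of 0.70 with them (0.63 without animal 5). EMILIN2 and ELN were named after their values were seen. LOXL1, a crosslinking enzyme gene, had the largest SD of the list (0.91) and EFEMP2 the smallest (0.30). The list's median SD was 0.49, against 0.36 for all tested genes.

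Among 11 other tested matricellular and linking genes, VTN, which is also in the liver list, rose with the liver score (1.55 on the score made without it, limma adjusted p = 9.46e-05), and SPARCL1 fell with the poly(A) control difference (-0.43, limma adjusted p = 0.0157). Without animals 3 and 7, where the liver score was highest, 0 genes outside the liver list passed in that fit. SPARCL1, a relative of SPARC, had a mean of 11.90 ± 0.55 (SD, n = 10), a median r of 0.77 with the 7 members (0.60 without animal 5) and r = -0.94 with CCN1 (-0.83 without animal 5). SPOCK2 had the second largest SD after VTN, 1.23, with a median r of 0.00, and TNXB the smallest, 0.46. The median r over the 11 genes ran from -0.23 for SMOC2, named after its value was seen, to 0.77 for SPARCL1. Without animal 5 it ran from -0.49 (SMOC2) to 0.76, the value of the basement membrane linker gene NID2.

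Signalling and receptor genes come next. Of 7 tested TGF-beta ligand, latency and receptor genes, 0 were called in any fit. TGFBR2, a TGF-beta receptor, had the highest median r with the 7 members, 0.56 (0.72 without animal 5), and BMPR2 and ACVR1 the lowest, -0.44. ACVR2B had the largest SD of that list (0.65) and BMPR2 the smallest (0.38). Of 8 TGF-beta and YAP mediators and targets, SMAD4 rose with the poly(A) control difference (0.32, limma adjusted p = 0.0146). TGFB1I1 had the highest median r there, 0.32 (0.27 without animal 5), but without animal 5 SMAD3 was highest at 0.58 (0.11 with it). ID1 had the largest SD (0.77) and SMAD2 the smallest (0.20). Of 7 tested receptors, ITGB1 rose (0.17, limma adjusted p = 0.0476) and CD36 fell (-0.22, limma adjusted p = 0.034) with that difference. The integrin gene ITGB3 had the largest SD of the receptors (0.66), ITGB5 the smallest (0.17) and CD36 the highest median r (0.54, 0.42 without animal 5). Without animal 5 ITGB1 was highest at 0.50, against -0.18 with it. These calls and that of SPARCL1 belong to the fit in which 0 genes passed without animal 5.

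Marker levels of other cell types moved with the members to different degrees, and their part in the results was not tested. The mean level over 4 fibrillar collagen genes ran from 9.32 to 11.98 across animals, over 10 measured macrophage genes from 6.34 to 8.11, and over 8 adipocyte genes from 8.44 to 10.24. The 8 measured endothelial markers lay between 7.87 and 8.47 on average. Over all 10 animals the score of the 6 tested ones had r = 0.75 with SPARC, 0.67 with MGP and -0.81 with CCN1. The smooth muscle and pericyte score, with 8 markers between 10.14 and 10.78, had r = 0.74 with MGP and 0.53 with THBS4. The 7 fibre markers ranged only from 15.72 to 15.80, at the top of the signal range.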

How the data were processed

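Total RNA was extracted with Trizol and poly(A) RNA taken with an oligotex resin, labelled with biotin and hybridised to 10 GeneChip Bovine Genome Arrays, per the labels' protocols. The deposited values are linear intensities, 1 per probe set and array, summarised by the authors with software not given in the sources used here; their mean without the lowest and highest 2% was 500.177 to 500.203 on every array.

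Intensities were turned into log2(signal + 16) and quantile normalized without the 112 control probe sets. For dim genes the added constant makes fold changes smaller than they were. Array medians spanned 0.24 before this step. Names came from the platform annotation: 13292 probe sets had 1 symbol, 86 several and 10638 none listed, and 0 symbols changed through the ARS-UCD2.0 gene table. Genes with a mean above 6.98, the median of all probe sets, were tested (6271). The poly(A) difference used 4 controls. The fifth, TrpnX, was left out because its intensities were only 1.94 to 48.8.

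Slopes were fitted with limma version 3.58.1 (trended prior) in R version 4.3.3 and Benjamini-Hochberg adjusted over all tested genes. Correlations are descriptions with no p. Members and lists were chosen with earlier results of these data known, among them the covariation of SPARC, FN1, MGP and TGFBI with fat and connective tissue scores, so these give no independent support. Named genes were all members, the 5 tested genes most like each, list genes called in a fit, in each pathway list the genes of highest and lowest SD and of highest median agreement with the members, and in each score list those of highest mean or SD; exceptions are marked. Genes given for agreement without animal 5, and ACVR1, were added after their values were seen. So were the values of single genes that show how far the immediate early, adipocyte, tendon and liver lists follow their scores. Precision is limited by the number of arrays.

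Alternatives were the deposited scaling, no filter, a pseudocount of 64, probe sets averaged per gene, omission of each animal, the poly(A) difference as covariate and a fit on ranks. Leaving out animals 3 and 7, and adding TrpnX, were chosen after seeing the data.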

Additional observations from a re-analysis of the deposited data

Results flagged for a closer look

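MFAP5 was low in animal 5: the gap from that animal to the next lowest was 0.569 of the whole range over the 10 animals, above Dixon's limit for 10 samples. The poly(A) control difference was high in the same animal, with a gap of 0.803 of its range. Chance flags about 1 in 20 groups, and 10 genes and 7 covariates were examined. The part of the control difference in the MFAP5 level was not tested.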

How the results depend on the processing

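Counts of genes called in either direction were small and depended on single animals. With each animal left out in turn, the count ran from 0 to 6 for the collagen score (3 with all animals), 0 to 10 for the adipocyte score (9), 0 to 24 for the macrophage score (27), 0 to 6 for the tendon score (0), 0 to 8 for the liver score (6) and 0 to 1107 for the poly(A) difference (1041). The CCN1 slope on the poly(A) difference ran from -0.18 (without animal 5) to 0.78 over the same omissions. With no filter the collagen count was 1 and the liver count 30. With the poly(A) difference as a covariate the collagen count was 8, the adipocyte count 4 and the macrophage count 3. With probe sets averaged per gene the adipocyte count was 5. The tendon count was 3 with the deposited scaling and 2 with a pseudocount of 64. Without animals 3 and 7 the adipocyte count was 2 and the liver count 0. With TrpnX added the poly(A) count was 532. A limma fit on ranks called 0 genes for all 7 covariates, with 256 to 521 at an unadjusted p below 0.05. The immediate early count was 0 under every alternative run. The causes of these differences were not tested. No paired analysis was possible because there is 1 group.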
